A study of Mus musculus with 1505 samples.

Results

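The L6 IT_1 and L6 IT_2 neurons of mouse primary motor cortex were compared with each other. They are a pair of transcriptomic types (t-types) of intratelencephalic (IT) pyramidal cells of layer 6. The members were chosen by the t-type in the sample labels among the cells recorded at room temperature, which gave 10 L6 IT_1 cells and 25 L6 IT_2 cells, 35 of the 1505 cells of the series. The study recorded neurons in acute slices with a patch pipette, aspirated their RNA through the same pipette and amplified it with Smart-seq2, so each sample is 1 cell (Patch-seq). The slices came from adult male and female mice, either wild type or of Cre lines crossed to a fluorescent reporter, and no animal received a treatment. The labels give neither the animal nor the line of a cell, and the authors assigned the t-types from the same RNA that is described here. Differences in level between the t-types are therefore a description of the cells that carry each name and not an independent test of them.

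IT neurons send their axons within the telencephalon, to other cortical areas and to the striatum, and they are found in upper and deep cortical layers. Those of layer 6 lie among corticothalamic (CT) neurons, which project to the thalamus, and above the L6b neurons at the white matter. They use glutamate and express the vesicular glutamate transporter gene *Slc17a7*. T-types within a family share most of their genes, and they are told apart by combinations of adhesion molecules, secreted factors, channels and transcription factors.

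The L6 IT_1 cells were recorded on 9 days and the L6 IT_2 cells on 17 days, with 1 day in common. Exonic counts per cell, without spike-ins, were between 786174 and 2048589 (median 1310348) in L6 IT_1 and between 324182 and 4012932 (median 1670085) in L6 IT_2. The median number of genes with an exonic read was 7728 in L6 IT_1 cells and 7253 in L6 IT_2 cells. The libraries of the t-types differed in the intronic share, the percentage of gene counts that fall in introns and so come from unspliced RNA. It was 25.8% to 62.4% (median 57.4%) in L6 IT_1 and 2.62% to 58.8% (median 42.8%) in L6 IT_2. In 11 of the 25 L6 IT_2 cells it lay below the lowest L6 IT_1 cell, and 14 L6 IT_2 cells lay at or above it, with a median of 52.03%. Each comparison was therefore also made with these 14 cells alone, called the intron-matched L6 IT_2 cells here, a choice made after the shares had been seen. Spike-ins took up to 18.9% of the exonic counts in L6 IT_1 and up to 63.8% in L6 IT_2, where 2 cells were above 30%.

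**Figure D1:**
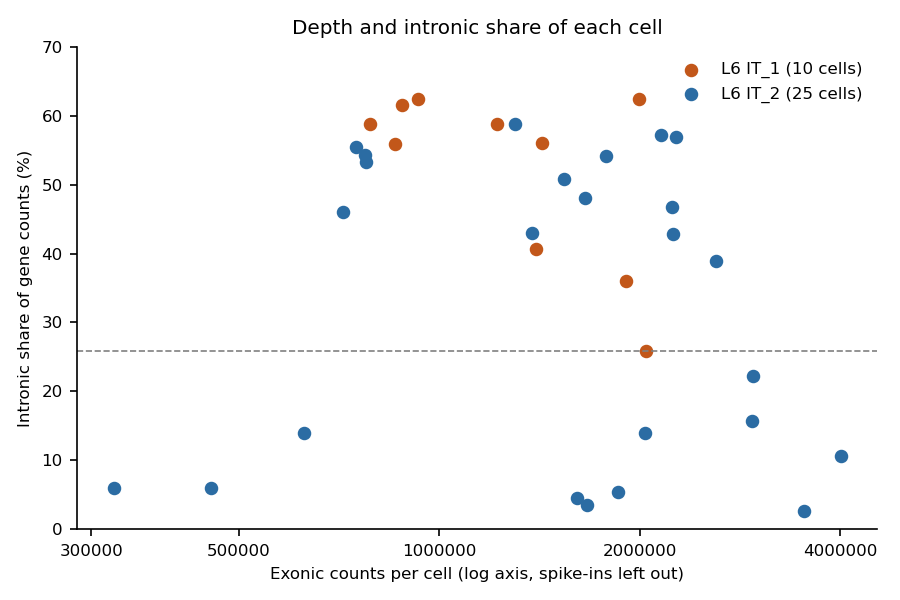
Intronic share of gene counts (percent, vertical axis) against exonic counts per cell (horizontal log axis), with 1 point per cell, for L6 IT_1 (10 cells) and L6 IT_2 (25 cells). All L6 IT_1 cells lie at or above 25.8%, marked by the dashed line, and 11 L6 IT_2 cells lie below it.

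Levels are in CPM, the usual scaling of counts by their total, and were computed from the exonic counts summed over the cells of a t-type. Each t-type is 1 sample here, because no label says which cells share an animal, so no test was run. Differences are given as the log2 of the L6 IT_1 level over the L6 IT_2 level after adding 1 CPM to both, and a gene is called higher or lower in L6 IT_1 from 2-fold on. The intervals (95%) are exact Poisson for sums and exact binomial for shares of cells. Those of sums cover counting error only, since reads copied by PCR are not separate molecules and cells of a t-type differ. Those of shares take the cells as independent draws, which the labels cannot show, because they name no animal. Of 7105 genes with at least 10 CPM in the t-type with the higher level and a read in at least 0.5 of its cells, 1337 (18.8%) were higher and 1098 (15.5%) were lower in L6 IT_1, 34.3% in all. With the intron-matched L6 IT_2 cells, 1242 were higher and 1117 lower. Of the genes higher in all cells, 836 were also higher against the intron-matched cells, which is 62.5% of the list from all cells and 67.3% of the matched list. Of the lower genes 569 were shared, 51.8% of the list from all cells and 50.9% of the matched list. A large part of the calls thus depended on which L6 IT_2 cells were used.

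The genes with the largest differences were then described one by one. Against the intron-matched cells the 12 genes furthest higher in L6 IT_1 had log2 ratios of 3.59 to 7.18, and the 12 furthest lower had -7.10 to -3.80. They were chosen for the size of their ratio in the same cells, so that ratios past 2-fold in a subset of these cells are no sign of stability. Of the 12 higher genes 8, and of the 12 lower genes 9, were past 2-fold under every alternative that gave a value for them. The 12 higher genes were *Opn3*, *Fst*, *Ndst3*, *Wls*, *Lgr5*, *Tpst1*, *Pdzrn3*, *Abcd4*, *Rfx2*, *Stard9*, *Fancg* and *Bcr*. The 12 lower genes were *Inhba*, *Blnk*, *Sorcs1*, *Diras2*, *Scd1*, *Prkar2a*, *Itch*, *Slc7a14*, *Bub3*, *H2-T23*, *Asphd2* and *Ptchd1*. Both lists hold genes of secreted and membrane proteins, among them *Fst* and *Inhba*, whose products bind each other.

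*Pdzrn3*, which encodes a ubiquitin ligase with PDZ domains (GRCm38, chr6:101149609-101377897, minus strand), led the higher genes in the number of cells with a read. All 10 L6 IT_1 cells held one, with a lowest level of 6.00, a median of 82.1 and a highest of 614 CPM, whereas 1 of 25 L6 IT_2 cells did, at 32.8 CPM. Of the L6 IT_1 cells, 9 lay above every L6 IT_2 cell. The summed level was 144 CPM (137 to 150) in L6 IT_1 and 2.19 CPM (1.78 to 2.67) in L6 IT_2, a log2 ratio of 5.50. Of the L6 IT_1 reads 60.6% came from 1 cell, and the log2 ratio was 4.39 at its lowest with a recording day left out. None of the 14 intron-matched L6 IT_2 cells had a read. The intronic counts held 416 CPM of *Pdzrn3* in L6 IT_1 and 18.9 CPM in L6 IT_2. *Fancg*, a member of the Fanconi anaemia DNA repair complex, was read in 9 of 10 L6 IT_1 cells and 4 of 25 L6 IT_2 cells, with medians of 159 and 0 CPM, and 8 L6 IT_1 cells lay above all L6 IT_2 cells. Its sums were 184 CPM in L6 IT_1 and 7.23 CPM in L6 IT_2 (log2 ratio 4.49).

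*Fst* encodes follistatin, a secreted protein that binds activins and blocks their signal (chr13:114452290-114458951, minus strand). It was read in 7 of 10 L6 IT_1 cells, with a median of 6.06 and a highest level of 463 CPM, and in none of 25 L6 IT_2 cells. The sums were 69.3 CPM (64.9 to 73.9) in L6 IT_1 and 0 CPM (0 to 0.0834) in L6 IT_2. Against a floor of 3 counts over the L6 IT_2 cells (0.0678 CPM) the level was at least 1022-fold higher, but 1 L6 IT_1 cell held 60.6% of the reads. The log2 ratio of *Fst* was 6.14, 4.52 at its lowest with a recording day left out, and 1.41 in the cells of June or later. After each cell was thinned to 200000 exonic counts, 5 of 10 L6 IT_1 cells (18.7% to 81.3%) and 0 of 25 L6 IT_2 cells (0% to 13.7%) had a read.

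*Wls*, which encodes the carrier that brings Wnt proteins to the cell surface (chr3:159839672-159938664, plus strand), was read in 6 L6 IT_1 cells (median 6.73, highest 340 CPM) and in 2 L6 IT_2 cells with 1 read each. Its sums were 64.02 CPM in L6 IT_1 and 0.0452 CPM in L6 IT_2, a ratio of 1416 with a counting interval of 391 to 11711. *Lgr5*, a receptor for R-spondins that strengthens Wnt signals, had 71 CPM in L6 IT_1 and 0.226 CPM in L6 IT_2. The cells with a read were 7 of 10 in L6 IT_1 and 9 of 25 in L6 IT_2, but the highest cell was at 353 CPM in L6 IT_1 and at 0.889 CPM in L6 IT_2. The high *Lgr5* levels lay in L6 IT_1 cells 1, 3 and 4, all recorded in March, at 259, 223 and 353 CPM. The next L6 IT_1 cell was at 17.1 CPM. Cells 1, 3 and 4 also had the highest *Fst* levels, at 127, 463 and 139 CPM. Cells 3 and 4 were recorded on the same day, and whether they share an animal is not known. In the cells of June or later the log2 ratio of *Lgr5* was -0.08.

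The other higher genes were also uneven among the L6 IT_1 cells. *Opn3*, an opsin gene, had 93.4 CPM in L6 IT_1 and 0.0226 CPM in L6 IT_2, with 68.5% of the L6 IT_1 reads in 1 cell, and its exons share 24.1% of their bases with *Chml*. Its log2 ratio was 6.53, and 1.41 in the cells of June or later. *Ndst3*, an enzyme of heparan sulphate synthesis, and *Tpst1*, which sulphates tyrosines of secreted proteins, had 66.3 and 54.5 CPM in L6 IT_1 and 0.0452 CPM each in L6 IT_2. *Stard9*, a kinesin gene, had 166 CPM in L6 IT_1 and 5.33 CPM in L6 IT_2, in 7 cells of each t-type. *Bcr*, a regulator of small GTPases, was at 69.1 CPM in L6 IT_1 and 2.49 CPM in L6 IT_2. *Abcd4*, a gene of cobalamin transport, and the transcription factor gene *Rfx2* had 51.3 and 50.2 CPM in L6 IT_1 and 0.633 and 0.746 CPM in L6 IT_2. In the intronic counts, where 9 of the 12 genes reached 10 CPM, 7 had a positive log2 ratio, and 2 had a negative one, *Ndst3* at -0.68 and *Bcr* at -0.16.

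Among the lower genes *Blnk* was read in the most L6 IT_2 cells. It encodes an adaptor protein known from the B cell receptor pathway (chr19:40928927-40994535, minus strand). A read was found in 1 of 10 L6 IT_1 cells, at 4.002 CPM, and in 22 of 25 L6 IT_2 cells, with a median of 94.6 and a highest level of 1271 CPM. The sums were 0.594 CPM (0.257 to 1.17) in L6 IT_1 and 121 CPM (118 to 124) in L6 IT_2, a log2 ratio of -6.26. All 14 intron-matched L6 IT_2 cells and 8 of the other 11 held a read. The intronic counts held 7.02 CPM of *Blnk* in L6 IT_1 and 255 CPM in L6 IT_2.

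*Inhba* encodes the subunit that pairs with itself to form activin A (chr13:16011851-16031621, plus strand). It was read in 2 L6 IT_1 cells, with a highest level of 2.46 CPM, and in 14 L6 IT_2 cells, with a median of 12.8 and a highest level of 710 CPM. The sums were 0.297 CPM (0.0809 to 0.761) in L6 IT_1 and 125 CPM (122 to 129) in L6 IT_2, and the log2 ratio was -6.60. All 14 L6 IT_2 cells with a read lay above every L6 IT_1 cell, while the other 11 had none. *Diras2*, a small GTPase of the Ras family, had a median of 0 and a highest level of 52.2 CPM in L6 IT_1 cells, and a median of 81.6 and a highest level of 814 CPM in L6 IT_2 cells. Its sums were 8.39 CPM in L6 IT_1 and 269 CPM in L6 IT_2. Within L6 IT_2 its sum was 130 CPM in the intron-matched cells and 409 CPM in the other 11 cells.

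*Sorcs1*, a sorting receptor of the Vps10 family, had 1 read in all L6 IT_1 cells and 50.8 CPM in L6 IT_2, where 14 cells held it. The ratio was 685-fold lower in L6 IT_1, with a counting interval of 123 to 27049. Its intronic reads were less apart, at 96.6 CPM in L6 IT_1 and 449 CPM in L6 IT_2. *Scd1*, a fatty acid desaturase, was at 1.78 CPM in L6 IT_1 and 74.3 CPM in L6 IT_2. *Prkar2a*, a regulatory subunit of protein kinase A, and *Itch*, a ubiquitin ligase, had 1.04 and 2.38 CPM in L6 IT_1 and 52.2 and 84.5 CPM in L6 IT_2. The remaining 5, *Slc7a14*, *Bub3*, *H2-T23*, *Asphd2* and *Ptchd1*, had 2.01 to 3.94 CPM in L6 IT_1 and 59.3 to 71.3 CPM in L6 IT_2, where each was read in 14 or 15 cells. In L6 IT_1 *H2-T23* was read in 7 cells, *Ptchd1* in 5, *Slc7a14* in 3, and *Bub3* and *Asphd2* in 1 each. The L6 IT_2 levels of the genes in this paragraph were uneven among cells, with medians over cells well below the sums. In L6 IT_2 these medians were 7.11 CPM for *Sorcs1*, 3.02 for *Scd1*, 0.98 for *Prkar2a* and 5.88 for *Itch*. For *Slc7a14*, *Bub3*, *H2-T23*, *Asphd2* and *Ptchd1* they were 22.5, 3.20, 3.12, 12.965 and 2.25 CPM. In the intronic counts 7 of the 12 lower genes reached 10 CPM, and all 7 had a negative log2 ratio.

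The promoters of 4 of these genes are shown to set the sequences beside the levels, a pair from each list. They are the 250 bases before the RefSeq start of the gene (GRCm38.p6), read 5′ to 3′ on the strand of the gene, and the capitals mark matches, on either strand, to the GC box GGGCGG, the TATA motif TATAAA, the E-box CACGTG or the cAMP response element TGACGTCA, none of which overlapped another. They lie at chr6:101377898-101378147 (*Pdzrn3*, minus strand), chr3:159839400-159839649 (*Wls*, plus strand), chr13:16011601-16011850 (*Inhba*, plus strand) and chr19:50678647-50678896 (*Sorcs1*, minus strand).
Pdzrn3: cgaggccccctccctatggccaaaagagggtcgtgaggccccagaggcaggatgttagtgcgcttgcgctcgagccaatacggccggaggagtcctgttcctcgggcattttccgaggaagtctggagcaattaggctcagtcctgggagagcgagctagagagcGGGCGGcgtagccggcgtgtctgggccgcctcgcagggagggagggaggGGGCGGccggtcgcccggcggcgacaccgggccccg
Wls: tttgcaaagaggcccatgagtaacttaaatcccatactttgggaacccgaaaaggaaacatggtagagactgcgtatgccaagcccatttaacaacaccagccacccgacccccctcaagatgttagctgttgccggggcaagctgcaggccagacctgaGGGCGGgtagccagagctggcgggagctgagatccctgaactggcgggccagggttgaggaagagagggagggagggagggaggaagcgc
Inhba: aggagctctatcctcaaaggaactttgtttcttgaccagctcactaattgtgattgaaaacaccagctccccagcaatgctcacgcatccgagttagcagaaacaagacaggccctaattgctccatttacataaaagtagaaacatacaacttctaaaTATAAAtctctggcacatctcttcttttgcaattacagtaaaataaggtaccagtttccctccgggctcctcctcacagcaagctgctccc
Sorcs1: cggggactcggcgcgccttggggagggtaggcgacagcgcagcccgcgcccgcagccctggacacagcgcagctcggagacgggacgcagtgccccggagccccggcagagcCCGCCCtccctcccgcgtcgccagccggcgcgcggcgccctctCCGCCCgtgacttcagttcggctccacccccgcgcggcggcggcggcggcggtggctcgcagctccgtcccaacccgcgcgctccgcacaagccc
Of the 24 genes, 19 have an entry in the promoter table, and *Fst* was not among them. The *Pdzrn3* window holds 2 GC boxes and 69.2% G and C, and that of *Wls* 1 GC box and 58%. The *Sorcs1* window holds 2 GC boxes and 79.6%, whereas *Inhba* has 1 TATA match, no GC box and 43.2%. Over 32851 promoter windows of the same length, 32.7% hold GGGCGG, 12.4% TATAAA, 6.02% CACGTG and 1.55% TGACGTCA, and the median G and C content is 52.4%. GC boxes were thus found on both sides of the comparison.

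**Figure D2:**
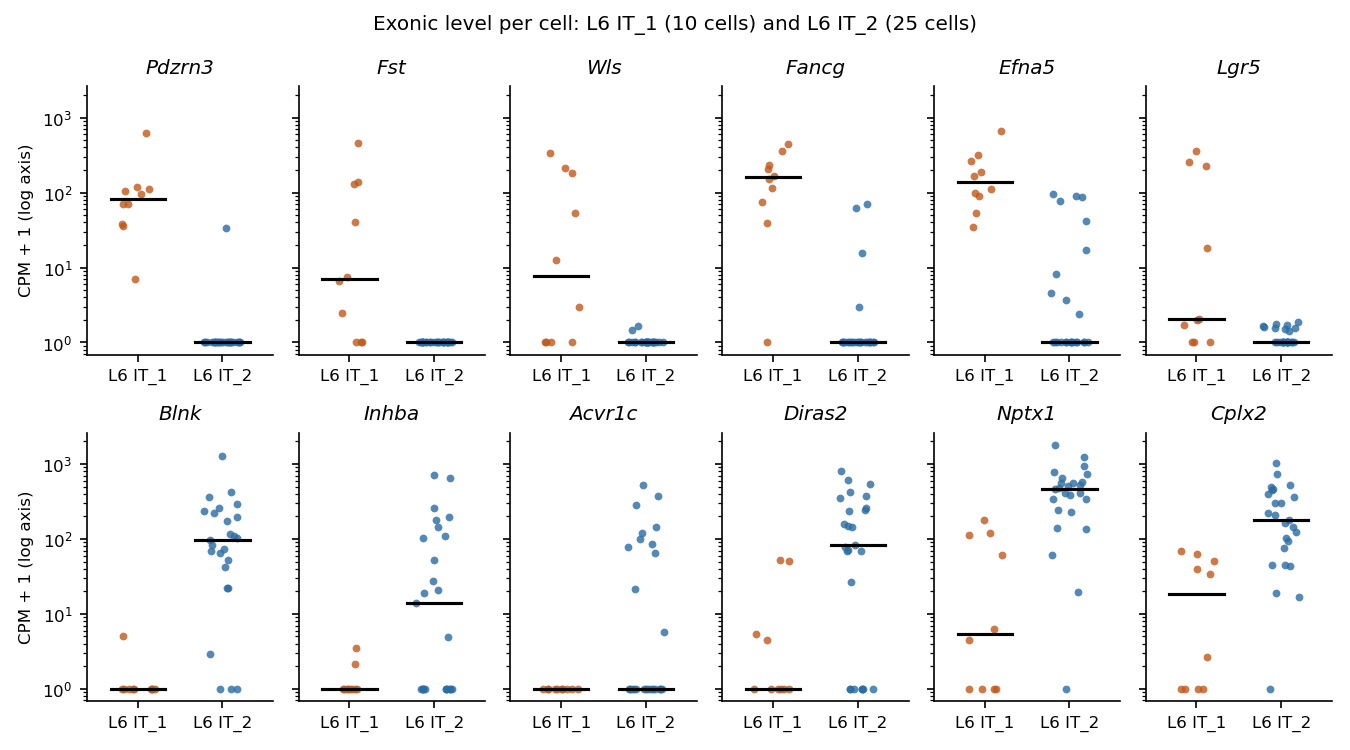
Exonic level of 12 genes in each cell, as CPM + 1 on a log axis, with L6 IT_1 (10 cells) left and L6 IT_2 (25 cells) right in each panel; horizontal bars are medians over cells. In the upper row *Pdzrn3* has 9 L6 IT_1 cells above all L6 IT_2 cells, and in the lower row *Blnk* has a read in 1 L6 IT_1 cell and 22 L6 IT_2 cells.

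Sums can rest on few cells, so genes were also ordered by the mean over cells of log2(CPM + 1), an order added after the data had been seen. It brought up genes that most cells of a t-type shared. *Efna5*, an ephrin that guides axons, was read in all 10 L6 IT_1 cells, between 33.8 and 671 CPM (median 138), and in 10 of 25 L6 IT_2 cells, with a median of 0 and a highest level of 94.4 CPM. The sums were 180 CPM in L6 IT_1 and 18.9 CPM in L6 IT_2, and 7 L6 IT_1 cells lay above all L6 IT_2 cells. *Akap13*, an anchor of protein kinase A that also activates a small GTPase, was at 408 CPM in L6 IT_1 and 57.5 CPM in L6 IT_2. *Mboat2*, an enzyme that remodels phospholipids, and *Brinp3* were the next of this order. *Brinp3* and *Mboat2* had 237 and 218 CPM in L6 IT_1 and 21.5 and 14.2 CPM in L6 IT_2.

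On the other side stood *Nptx1*, a secreted pentraxin that gathers AMPA receptors at synapses. It was read in 6 L6 IT_1 cells (median 4.36, highest 180 CPM) and in 24 L6 IT_2 cells (median 467, highest 1803 CPM), and 20 L6 IT_2 cells lay above every L6 IT_1 cell. Its sums were 53.8 CPM in L6 IT_1 and 522 CPM in L6 IT_2 (log2 ratio -3.26). *Cplx2*, a complexin that acts in vesicle release, had a median of 17.4 CPM in L6 IT_1 cells and of 175 CPM in L6 IT_2 cells, and sums of 24.5 CPM in L6 IT_1 and 287 CPM in L6 IT_2. Within L6 IT_2 the sum of *Cplx2* was 121 CPM in the intron-matched cells and 455 CPM in the other 11. *Sept7*, a septin of the cytoskeleton, had 172 CPM in L6 IT_1, 379 CPM in the intron-matched L6 IT_2 cells and 997 CPM in the other 11. The L6 IT_1 sum of *Sept7* rested on 1 cell with 69.3% of the reads, while the median over cells was 31.3 CPM, and the log2 ratio of -1.99 was -3.17 without the deepest cell of each t-type. For these genes the level moved with the intronic share within L6 IT_2, and its part in the difference between the t-types was not tested.

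The class of the cells was checked with marker genes. In all 11157 genes with at least 10 CPM in either t-type, the background for every list, 21.6% were higher and 21% lower (42.7% in either direction), with a median log2 ratio of 0.00065. *Slc17a7* was read in every cell of both t-types, with 645 CPM in L6 IT_1 and 969 CPM in L6 IT_2, and *Camk2a*, a kinase of excitatory neurons, had 572 and 918 CPM. Of the 7 glutamatergic markers with at least 10 CPM none was past 2-fold in either direction. Of the 4 GABAergic markers with at least 10 CPM, 3 were higher in L6 IT_1, through 1 cell, and 1, *Npy*, was lower (log2 ratio -4.15). *Gad1*, which encodes an enzyme of GABA synthesis, had 47.6 CPM in L6 IT_1 and 5.33 CPM in L6 IT_2, and 99.4% of the L6 IT_1 reads came from L6 IT_1 cell 8. The same cell held all *Gad2* reads of L6 IT_1. The summed level of the 10 listed GABAergic markers was 2150 CPM in that cell, with 11.7 CPM in the next L6 IT_1 cell, and up to 366 CPM (median 19.6) in L6 IT_2 cells. Without cell 8 the log2 ratios were -2.27 for *Gad1* and -1.22 for *Gad2*, and the counts over all genes were 1146 higher and 1147 lower.

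Markers of glia were present in both t-types. The summed oligodendrocyte markers were between 233 and 4329 CPM (median 750) in L6 IT_1 cells and between 0 and 7308 CPM (median 526) in L6 IT_2 cells. For astrocytes the range was 50.3 to 986 CPM (median 230) in L6 IT_1 and 0 to 4152 CPM (median 157) in L6 IT_2. For microglia it was 1.46 to 736 CPM (median 160) in L6 IT_1 and 0 to 5723 CPM (median 96.97) in L6 IT_2, and 3 of the 8 microglial genes were lower and 1 higher in L6 IT_1. No endothelial or mural marker reached 10 CPM. The X-inactivation transcript *Xist* was read in 4 L6 IT_1 cells and 7 L6 IT_2 cells, with sums of 662 CPM in L6 IT_1 and 133 CPM in L6 IT_2. Of the 5 listed sex-linked genes 3 were higher and 0 lower in L6 IT_1, with log2 ratios of 0.011 to 3.04. The part of these differences in cell type markers and sex-linked genes in the other results was not tested.

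The neurons known as L6 IT in visual cortex carry type names built from genes such as *Penk*, *Fst*, *Adamts2* and *Col27a1*, and these genes were unevenly divided between the motor cortex types. In L6 IT_1 *Fst* (above) and *Adamts2*, a protease that trims procollagen, were higher. *Adamts2* had 32.01 CPM in L6 IT_1 and 1.06 CPM in L6 IT_2, in 6 of 10 and 2 of 25 cells. *Penk*, the gene of the enkephalin peptides, was lower, with 88.8 CPM in L6 IT_1 and 344 CPM in L6 IT_2. It was read in 3 L6 IT_1 cells and 16 L6 IT_2 cells, and 14.3% of its exonic bases are shared with a gene on the opposite strand. *Col27a1*, a fibrillar collagen, had no read in L6 IT_1 and 31.7 CPM in 8 L6 IT_2 cells, at least 142-fold lower in L6 IT_1. From the same list, *Osr1*, a zinc finger transcription factor, had 3.05 CPM in L6 IT_1 and 18.7 CPM in L6 IT_2. *Sulf1*, which edits heparan sulphate, was at 350 CPM in L6 IT_1 and 296 CPM in L6 IT_2 and did not separate them.

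Genes known from the L6 IT Car3 and claustrum neurons were mostly lower in L6 IT_1, 4 of the 6 with at least 10 CPM, and 1 was higher. *Oprk1*, the kappa opioid receptor gene, had 11.1 CPM in L6 IT_1, all in 1 cell, and 96.95 CPM in L6 IT_2, in 13 cells. *Gnb4*, a G protein subunit, and *Lxn*, a carboxypeptidase inhibitor, had 20.1 and 4.08 CPM in L6 IT_1 and 87.4 and 20.3 CPM in L6 IT_2. *Synpr*, a synaptic vesicle protein, was the higher one, with 12.6 CPM in L6 IT_1 and 1.02 CPM in L6 IT_2. The median of the list was -1.61, and -1.70 with the intron-matched cells, against which 21.4% of 11196 genes were higher and 21.6% lower.

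Of the 6 upper-layer IT genes with at least 10 CPM, 4 were higher and 0 lower, with a median of 1.38, and of 1.78 with the intron-matched cells. *Lamp5* was among them with 38.5 CPM in L6 IT_1 and 4.79 CPM in L6 IT_2. The lists for the other excitatory families had few members with at least 10 CPM. In L5 IT 2 of 4 were higher and 1 lower, in L5 ET 3 of 5 were higher and 1 lower, and in L6 CT 1 of 3 was higher and 0 lower. Both L6b genes and the 1 L5/6 NP gene were higher, and the 1 layer 4 gene was lower. *Ntsr1*, the neurotensin receptor gene known as a marker of corticothalamic cells, had 61.7 CPM in L6 IT_1, in 6 of 10 cells, and 14.04 CPM in L6 IT_2, in 4 of 25. In these data *Ntsr1* was at most 23.5 CPM in the 12 other excitatory t-types (L6b Col6a1), the L6 CT types included. *Ccn2*, a marker of L6b, had 33.3 CPM in 4 L6 IT_1 cells and no read in L6 IT_2, at least 491-fold higher, with 23.2% of its exonic bases shared with another gene. *Nr2f1*, a nuclear receptor that patterns the cortical areas, was at 50.6 CPM in L6 IT_1 and 11.5 CPM in L6 IT_2, a log2 ratio of 2.04 that was 0.84 at its lowest with a recording day left out. Of 25 transcription factors of cortical excitatory neurons, 7 were higher and 3 lower, and 6 and 4 with the intron-matched cells.

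The leading genes were set beside 12 other excitatory t-types with at least 5 cells each, as a description of where else they were found. Among all 14 t-types L6 IT_1 had the highest summed level for 7 of its 12 higher genes, and L6 IT_2 had the lowest for 3 of them. For the 12 lower genes L6 IT_1 had the lowest level for 9, and L6 IT_2 the highest for 4. These genes were chosen for a large ratio between the L6 IT types, which itself favours extreme places for them. The same counts were not made for genes chosen in another way. *Fst* was at 69.3 CPM in L6 IT_1 and at most at 15.04 CPM elsewhere, in L2/3 IT_3. *Pdzrn3* by contrast had 144 CPM in L6 IT_1, 160 CPM in L4/5 IT_1 and 2.19 CPM in L6 IT_2, with a median of 47.4 CPM over the other types. *Wls* reached 307 CPM in L4/5 IT_1. For *Pdzrn3* and *Wls* it was thus L6 IT_2 that stood at the low end of the IT cells.

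*Blnk* had 121 CPM in L6 IT_2, at most 81.1 CPM in another t-type (L6 CT Cpa6) and 0.594 CPM in L6 IT_1, and L6b Ror1 had none. *Inhba* was highest in L6 IT_2 and next in L2/3 IT_3, at 81.1 CPM. *Osr1* was at most 0.0196 CPM in any of the other 12 types, and *Oprk1* at most 19.5 CPM. Both genes had their highest levels in L6 IT_2. *Fzd7*, a Wnt receptor, was at 0.446 CPM in L6 IT_1, 17.9 CPM in L6 IT_2 and at most 0.317 CPM elsewhere. *Sulf1* was high in both L6 IT types and in L6b Col6a1 (303 CPM), and had a median of 0.627 CPM over the 12 types.

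**Figure D3:**
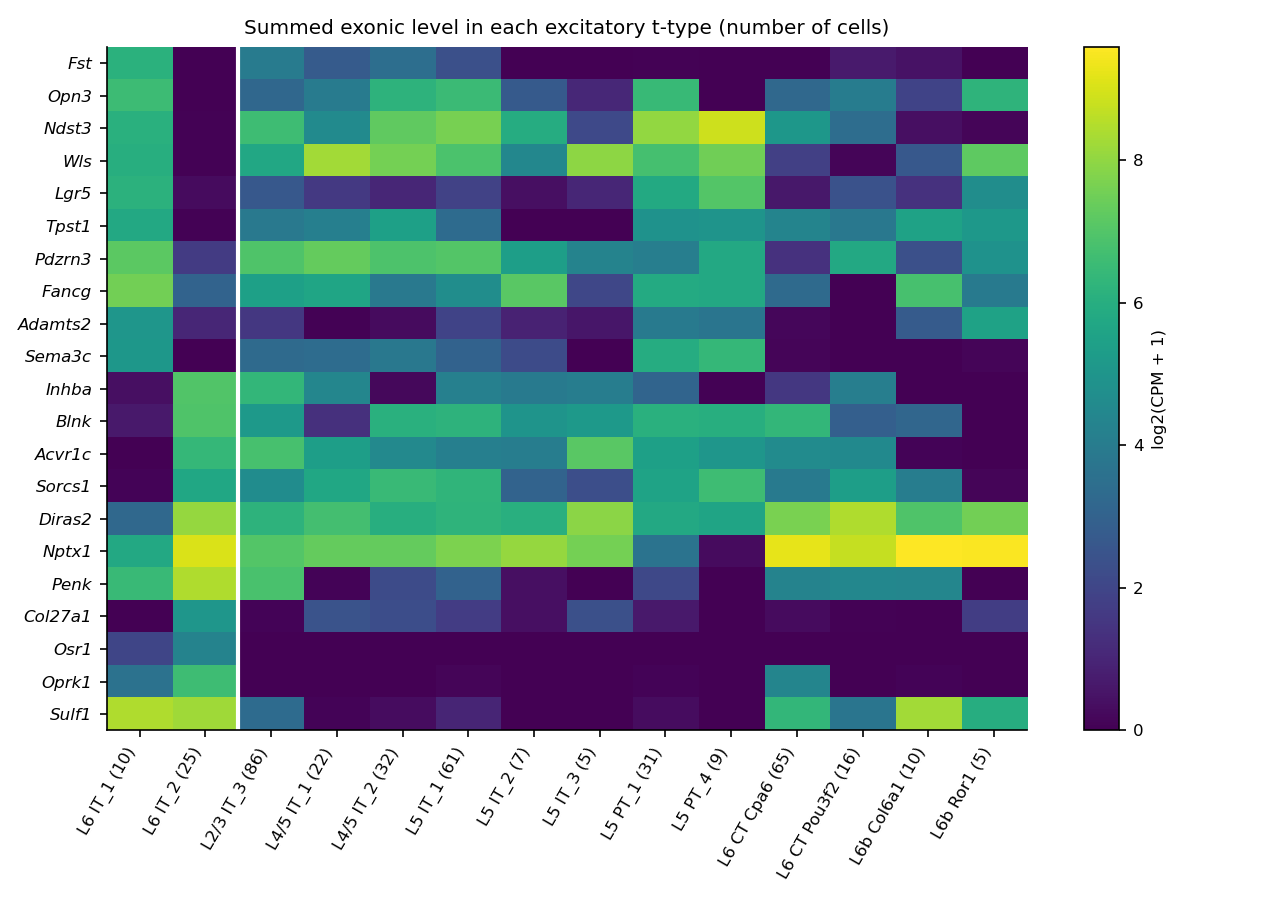
Summed exonic level, as log2(CPM + 1) in colour, of 21 genes (rows) in L6 IT_1, L6 IT_2 and 12 other excitatory t-types (columns, with the number of cells). *Fst* is brightest in L6 IT_1 (69.3 CPM), with at most 15.04 CPM in another t-type (L2/3 IT_3). *Osr1* is above 0.0196 CPM in L6 IT_1 and L6 IT_2 alone, and *Pdzrn3* is dark in L6 IT_2 (2.19 CPM) but not in L6 IT_1 (144 CPM).

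Because follistatin and activin A were at opposite ends, the activin, inhibin and BMP pathway was looked at with a list written after these values had been seen. Activins bind type II receptors, which recruit type I receptors that phosphorylate SMAD proteins. *Acvr1c*, which encodes the type I receptor ALK7, had no read in L6 IT_1 and 81.8 CPM (79.1 to 84.5) in L6 IT_2, in 11 cells with a highest level of 521 CPM. The level was at least 367-fold lower in L6 IT_1 against a floor of 3 counts over its cells (0.223 CPM), and 0 of 10 thinned L6 IT_1 cells (0% to 30.8%) against 10 of 25 thinned L6 IT_2 cells (21.1% to 61.3%) had a read. Intronic reads of *Acvr1c* were present in both t-types, in 6 L6 IT_1 cells and 14 L6 IT_2 cells, at 9.66 CPM in L6 IT_1 and 29.3 CPM in L6 IT_2 (log2 ratio -1.51). *Acvr1*, another type I receptor, had 13.8 CPM in L6 IT_1 and 70.5 CPM in L6 IT_2, and the ligand gene *Tgfb2* had 1.04 and 20.1 CPM. The pathway as a whole was divided, with 6 of 19 genes higher, 5 lower and a median log2 ratio of 0.25, and 5 of 18 higher, 7 lower and a median of -0.13 with the intron-matched cells. These counts include *Fst* and *Inhba*, which led to the list.

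A Wnt list was added for the same reason, after *Wls* and *Lgr5*. Wnt proteins are secreted with the help of the carrier encoded by *Wls* and act through Frizzled receptors. Of 27 genes with at least 10 CPM, 10 were higher and 3 lower, with a median of 0.61, and the counts were also 10 and 3 with the intron-matched cells (median 0.23). *Wls*, which led to the list, is counted among the higher genes, so the counts are not independent of that choice. *Daam1*, which links Frizzled receptors to actin, had 170 CPM in L6 IT_1, in 7 cells, and 12.7 CPM in L6 IT_2, in 11 cells. *Fzd7* went the other way.

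Axon guidance and adhesion genes, which set where axons grow and where synapses form, differed in both directions. Of 17 guidance ligands 7 were higher and 4 lower in L6 IT_1 (median 0.57), and 3 and 7 with the intron-matched cells (median 0.24). *Sema3c* was read in 4 L6 IT_1 cells, up to 193 CPM, and in no L6 IT_2 cell, with a summed level of 32.7 CPM in L6 IT_1 that was at least 482-fold higher. The other semaphorins named here were lower. *Sema3a* had 2.01 CPM in L6 IT_1 and 32.1 CPM in L6 IT_2, *Sema5a* had 1.56 and 19.8 CPM, and *Sema6d* had 3 reads (0.223 CPM) in L6 IT_1 and 25.5 CPM in L6 IT_2. *Ntng1*, a netrin anchored in the membrane, was higher, with 82.4 CPM in L6 IT_1 and 15.2 CPM in L6 IT_2. *Slit2*, a repellent for Robo receptors, was also higher, with 216 CPM in L6 IT_1 and 63.3 CPM in L6 IT_2.

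Of 19 guidance receptors 4 were higher, 1 was lower and 14 were within 2-fold (median 0.25). With the intron-matched cells 0 were higher and 3 lower (median -0.41). Among them *Robo3* was higher with all cells, with 302 CPM in L6 IT_1 and 93.99 CPM in L6 IT_2. The medians over cells were 51.6 and 51.5 CPM, since 1 L6 IT_1 cell held 54.4% of the *Robo3* reads. Its log2 ratio of 1.67 was 0.93 with the intron-matched cells, so that the call ended. *Dcc*, the netrin receptor, had 1.63 CPM in L6 IT_1 and 14.4 CPM in L6 IT_2. Of 20 synaptic organizers 6 were higher and 3 lower (median 0.77), and 3 and 6 with the intron-matched cells (median 0.15). *Cbln2*, a secreted synaptic organizer that binds neurexins, had no read in L6 IT_1 and 39.3 CPM in 10 L6 IT_2 cells, at least 176-fold lower. *Tenm2*, a teneurin of the synaptic membrane, was higher, with 114 CPM in L6 IT_1 and 33.95 CPM in L6 IT_2. Of 19 cadherins and protocadherins, 7 were higher and 5 lower (median 0.82). *Cdh2* and *Cdh10* had 239 and 210 CPM in L6 IT_1 and 74.9 and 91.5 CPM in L6 IT_2. *Cdh4*, *Cdh9* and *Pcdh15* were lower, with 8.69, 61.7 and 6.68 CPM in L6 IT_1 and 40.4, 199 and 53.2 CPM in L6 IT_2. Against the intron-matched cells the median of this list was 0.18, with 3 of 18 genes higher and 6 lower.

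The calcium-binding proteins were the list with the most members lower in L6 IT_1. Of 11 genes 7 were lower and 1 higher, with a median of -1.44. *Ncald*, a neuronal calcium sensor, had 221 CPM in L6 IT_1 (median over cells 129) and 974 CPM in L6 IT_2 (median over cells 597). *Necab1* had 43.7 and *Necab3* 62.02 CPM in L6 IT_1, against 302 and 324 CPM in L6 IT_2, and 16 L6 IT_2 cells lay above every L6 IT_1 cell for *Necab3*. *S100a10*, a partner of annexin A2, had no read in L6 IT_1 and 11.2 CPM in L6 IT_2, at least 50.1-fold lower. With the intron-matched cells 2 of 10 genes were higher and 3 lower, with a median of -0.28, and *Necab3* had a log2 ratio of -2.28.

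Ion channel genes set how a neuron fires. Of 16 calcium channel subunits 4 were higher and 1 lower (median 0.49), and 4 and 2 with the intron-matched cells (median 0.012). *Cacna1d* and *Cacna1c*, the L-type channels of the brain, had 189 and 118 CPM in L6 IT_1 and 38.9 and 36.9 CPM in L6 IT_2, and *Cacna1e*, the R-type channel, had 619 CPM in L6 IT_1 and 264 CPM in L6 IT_2. With the intron-matched cells, which held 427 CPM of *Cacna1e* against 100.5 CPM in the other 11, its log2 ratio of 1.22 was 0.53 and the call ended. That of *Cacna1c* was 1.65, and 0.89 at its lowest with a recording day left out. *Cacna1d* was read in all 10 L6 IT_1 cells and 12 of 25 L6 IT_2 cells, with medians of 159 and 0 CPM. *Pex5l*, which controls the trafficking of HCN channels, was between 45.5 and 369 CPM in L6 IT_1 cells (median 122) and between 0 and 337 CPM in L6 IT_2 cells (median 4.65).

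Most potassium channel genes were within 2-fold with all cells. Kv1 channels and beta subunits had 1 of 7 higher and 1 lower. Kv4 channels and partners had 2 of 8 and 0, and inward rectifier and leak channels 3 of 12 and 3. With the intron-matched cells these lists had 1, 2 and 4 higher and 4, 0 and 3 lower. The Kv2, Kv3, Kv7 and calcium-activated lists had 1 of 6, 0 of 4, 1 of 8 and 1 of 6 higher. Lower were 1, 0, 1 and 0. Over all genes 42.7% were past 2-fold. *Kcnab2*, a beta subunit of Kv1 channels, was lower. Its median was 3.29 and its highest level 36.5 CPM in L6 IT_1 cells, against 61.8 and 226 CPM in L6 IT_2 cells. In all, 16 L6 IT_2 cells lay above every L6 IT_1 cell. *Kcnj6*, a channel opened by G proteins, had 19.98 CPM in L6 IT_1 and 93.6 CPM in L6 IT_2. *Dpp6*, a partner of Kv4 channels, had 187 CPM in L6 IT_1 and 53.3 CPM in L6 IT_2. Of 7 sodium channels 1 was higher and 0 lower, and of 8 with the intron-matched cells 1 was higher and 2 lower. The higher one with all cells, *Scn8a*, was near the threshold, with 388 CPM in L6 IT_1 and 191 CPM in L6 IT_2. Its log2 ratio of 1.02 was 0.41 with the intron-matched cells.

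Receptors for transmitters were mixed. Of 13 GABA receptor subunits 0 were higher and 3 lower, and 1 and 4 with the intron-matched cells. *Gabra2* and *Gabrb2* had 37.7 and 44.9 CPM in L6 IT_1 and 129 and 150 CPM in L6 IT_2. Of the glutamate receptors, *Grm7* had 262 CPM in L6 IT_1 and 118 CPM in L6 IT_2, and its log2 ratio of 1.14 was 0.35 with the intron-matched cells, where the call ended. *Grin2b*, an NMDA receptor subunit, had 722 CPM in L6 IT_1 and 361 CPM in L6 IT_2, just inside 2-fold.

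For the monoamine and acetylcholine receptors 6 of 14 genes were higher and 5 lower (median 0.60), and 5 and 5 with the intron-matched cells (median 0.0092). *Drd1*, the D1 dopamine receptor gene, was read in 1 of 10 L6 IT_1 cells and 13 of 25 L6 IT_2 cells, with sums of 3.86 and 61.2 CPM. *Chrm2*, the M2 muscarinic receptor gene, was read in 1 and 11 cells, with sums of 1.49 CPM in L6 IT_1 and 40.5 CPM in L6 IT_2. *Npy*, a neuropeptide gene that is also among the GABAergic markers above, had 0.371 CPM in L6 IT_1 and 23.4 CPM in L6 IT_2.

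Genes that respond to activity or stress were also listed, since slices and recording can induce them. Of 15 immediate early genes 4 were higher and 0 lower in L6 IT_1 (median 0.71). With the intron-matched cells 4 were higher and 2 lower (median 0.93), and in the cells of June or later the median was -1.11. *Npas4*, a transcription factor induced by calcium influx, had 741 CPM in L6 IT_1 (median over cells 761) and 218 CPM in L6 IT_2 (median over cells 101), but a log2 ratio of -5.17 in the cells of June or later. *Egr4* and *Homer1* had 686 and 1037 CPM in L6 IT_1 and 268 and 451 CPM in L6 IT_2. With the intron-matched cells the log2 ratios were 0.99 for *Npas4* and 0.39 for *Homer1*, both under 2-fold, and *Homer1* was at 789 CPM in these cells and at 109 CPM in the other 11. The log2 ratio of *Egr4* was 0.53 at its lowest with a recording day left out. The heat shock genes *Hspa1a* and *Hspa1b*, which are near-identical copies and cannot be told apart safely, had 111 and 121 CPM in L6 IT_1 and 34.3 and 35.2 CPM in L6 IT_2, and neither stayed past 2-fold with each recording day left out (lowest log2 ratios 0.85 and 0.77). Of 8 mitochondrially encoded genes 2 were lower, *mt-Cytb* among them, with 649 CPM in L6 IT_1 and 1530 CPM in L6 IT_2, and 1 was with the intron-matched cells. How far activity, stress or RNA quality bears on the other differences was not tested.

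**Figure D4:**
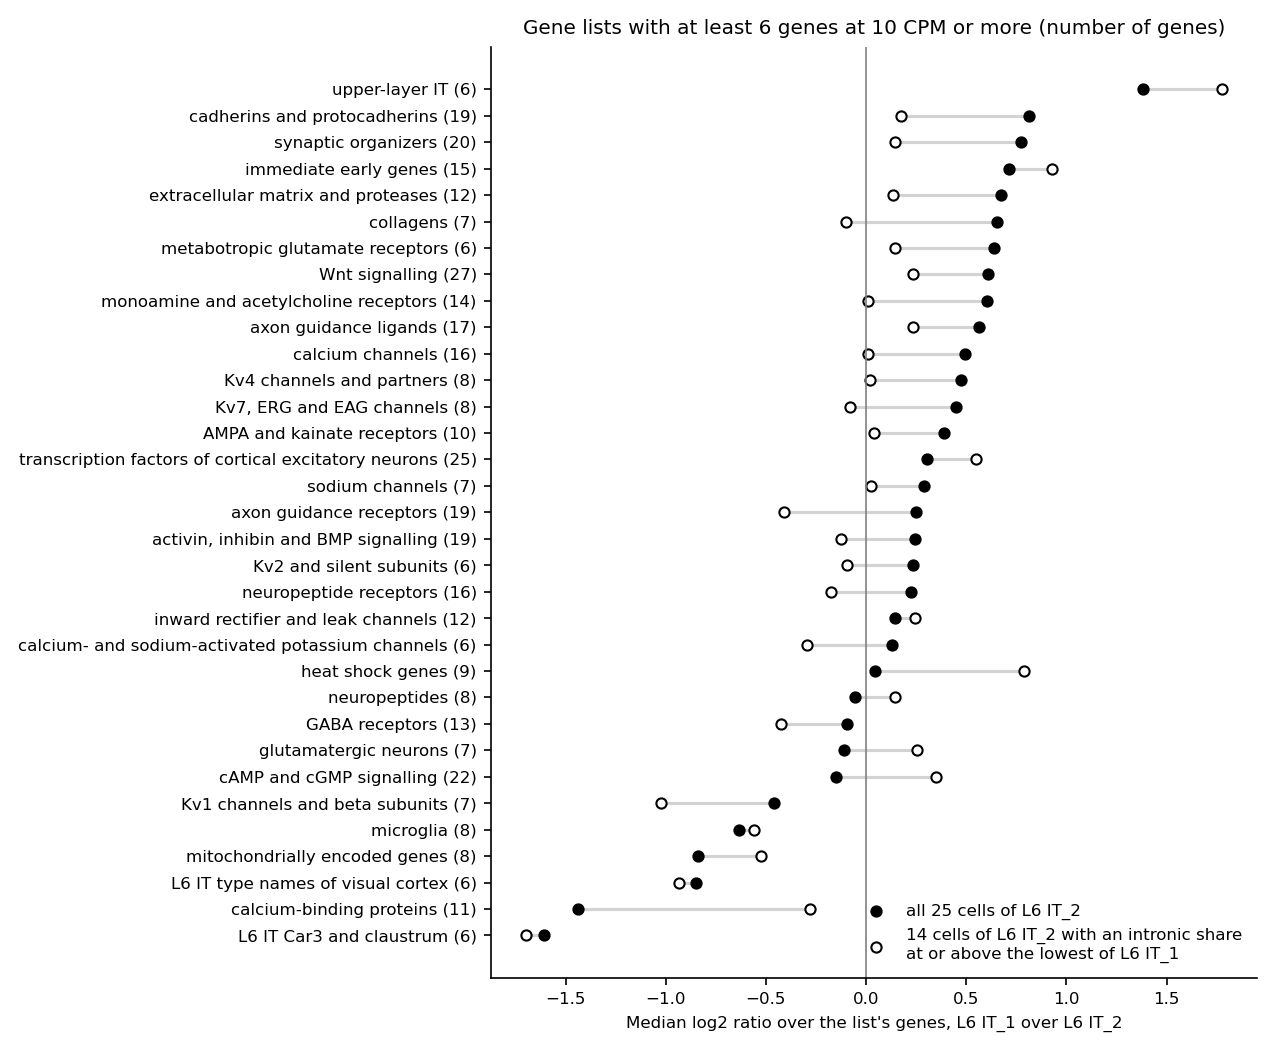
Median log2 ratio of L6 IT_1 over L6 IT_2 (horizontal axis) for the gene lists with at least 6 genes at 10 CPM or more (number of genes in parentheses), with all 25 L6 IT_2 cells (filled) and with the 14 intron-matched cells (open). The upper-layer IT list keeps its side (1.38 and 1.78), as does the L6 IT Car3 and claustrum list (-1.61 and -1.70), whereas the calcium-binding proteins lie at -1.44 and -0.28.

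Over all lists, 23 had a median of at least 0.5 in size with all cells, 15 with the intron-matched cells and 14 in the intronic counts alone. Those that kept a median of that size with the intron-matched cells included the upper-layer IT genes, the immediate early genes, the L6 IT type names (-0.85 and -0.94) and the Car3 and claustrum genes. With intronic counts alone the medians were -0.34 for the upper-layer IT genes and 0.63 for the immediate early genes. They were 2.09 for the L6 IT type names and 0.15 for the Car3 and claustrum genes. The sign of the median differed for 3 of these 4 lists. Each median took the members with at least 10 CPM in the counts used, so it can cover other genes than with exonic counts. The 2.09 was the value of *Col23a1*. Of the 84 named genes past 2-fold, 6 fell short of it with the intron-matched cells, 11 with a recording day left out and 17 of 82 in the cells of June or later.

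The place of the 2 t-types among IT cells was described with the 500 most variable genes. The mean profiles of L6 IT_1 and L6 IT_2 had a correlation of 0.898 over these genes. L6 IT_1 was closest to L6 IT_2, followed by L2/3 IT_3 (0.890) and L4/5 IT_2 (0.888), while L6 IT_2 was closest to L5 IT_1 (0.905) and then to L6 IT_1. These correlations share genes and lie close together, and they are given without a test. Each cell was then set against the means of the other cells of both t-types. In all, 24 of 35 cells lay nearer to their own t-type, 9 of 10 in L6 IT_1 and 15 of 25 in L6 IT_2. The difference between the 2 correlations was between -0.108 and 0.0727 (median 0.0382) in L6 IT_1 cells and between -0.158 and 0.0541 (median -0.0195) in L6 IT_2 cells.

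The cells that lay nearer to the other t-type were not spread evenly over the intronic share. All 10 L6 IT_2 cells nearer to L6 IT_1 were among the 14 intron-matched cells, with intronic shares of 42.96% to 58.8%, and none was among the other 11. The 1 L6 IT_1 cell nearer to L6 IT_2 had the lowest intronic share of its t-type, 25.8%. When the L6 IT_2 mean was taken from the intron-matched cells alone, 27 cells lay nearer to their own t-type, 5 of 10 in L6 IT_1 and 22 of 25 in L6 IT_2, and the correlation of the means was 0.933. The place of single cells between the t-types thus moved with the intronic share, and the part of the t-type and of the intronic share could not be told apart with these cells.

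**Figure D5:**
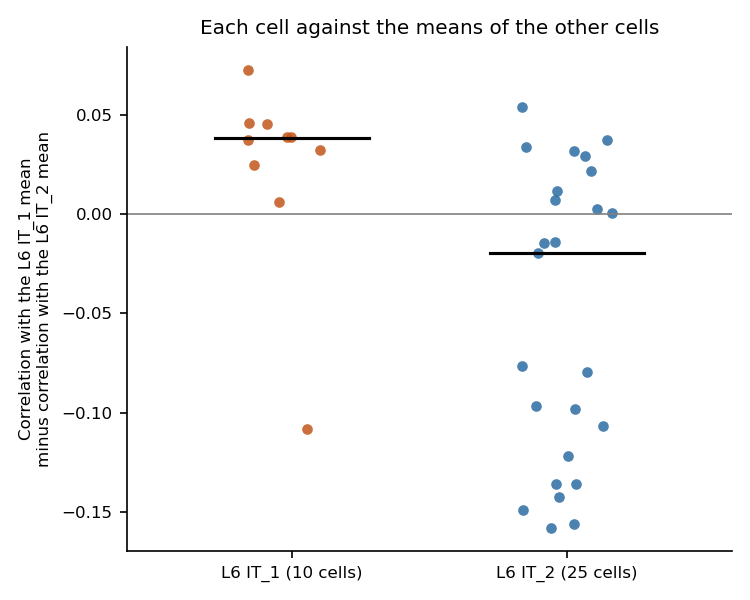
For each cell, the correlation with the L6 IT_1 mean minus that with the L6 IT_2 mean over 500 variable genes (vertical axis), for L6 IT_1 (10 cells) left and L6 IT_2 (25 cells) right; values above 0 are nearer to L6 IT_1. In L6 IT_1 9 cells lie above 0, and in L6 IT_2 10 cells do.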

How the data were processed

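RNA of single neurons was aspirated after whole-cell recording in acute slices. It was amplified by Smart-seq2, which adds no molecular identifiers, together with ERCC spike-ins. The authors used bcl2fastq (version 2.20) and STAR (version 2.5.4b) with the mm10 genome, and zUMIs to count reads in exons and in introns. The deposited values are raw read counts per gene and cell, without normalization or strand, so overlapping genes can share reads. Of the exonic columns 384 were used and 945 were not, 9 of which have no sample, and of the intronic columns 35 were used and 1294 were not. The sequencing batch and mouse line of a cell are not given in the sources used here.

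Cells were grouped by the t-type and temperature in the labels. The 85 spike-in rows (5.56% of the exonic counts of the 35 cells) were left out of all totals, which leaves 42381 genes. CPM were taken from sums of counts over a t-type, in which deep cells weigh more. Log2 ratios used a pseudocount of 1 CPM and calls a fold of 2. A floor of 3 counts over the t-type was used where a t-type had no read. Each t-type was treated as 1 sample, since the labels name no animal, and no p-value or standard error was computed. The ratio of sums was also tested on simulated counts with known changes. The simulated spread between cells was a set value and was not fitted to these cells. That test therefore does not show how the ratios behave where 1 cell holds most reads of a gene.

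The members and lists were chosen with earlier results of these data known. Named are the 12 largest log2 ratios on each side, provided that the t-type with the higher level had 50 CPM or more and a read in at least 0.5 of its cells and that the mean log2 level differed the same way, and up to 4 genes of each of 46 lists, with the marker lists in full. Predicted genes without a name (191 of 4541 that met the limits) were left out, and some genes that the rule named are not reported here. The activin and Wnt lists, their genes, *Grin2b*, *Sema5a*, *Ntng1*, *Slit2*, the cadherins and the genes ordered by mean log2 difference were chosen after their values were seen. Variable genes were taken from those with 32 or more counts in no fewer than 10 cells. Gene positions are from GENCODE and promoters from RefSeq, both on GRCm38. Alternatives were other weights for cells and days, thinning to 200000 counts, deep cells (at least 500000 counts), recording periods, intronic counts, another pseudocount, centring, other filters and each day left out. Chosen after seeing the data were the intron-matched cells, the cells without high spike-in shares and the L6 IT_1 cells without cell 8. Computations used Python 3.11.15, numpy 2.4.6, pandas 2.3.3, scipy 1.17.1 and matplotlib 3.10.9.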

Additional observations from a re-analysis of the deposited data

Results flagged for a closer look

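Of 9 library measures looked at in the 10 L6 IT_1 cells, 4 had a cell far from the others by Dixon's criterion. It flags about 1 in 20 groups by chance where values are normally distributed. That was not checked here, and the 4 measures were not log-transformed, so their chance rate is not known. L6 IT_1 cell 5 had the highest spike-in share, 18.9%, with 8.07% in the next cell. The same cell had the highest summed level of astrocyte markers, 986 CPM, with 415 CPM in the next cell. L6 IT_1 cell 9 stood apart in oligodendrocyte markers, with 4329 CPM and 1379 CPM in the next cell. L6 IT_1 cell 8 stood apart in GABAergic markers, with 2150 CPM and 11.7 CPM in the next cell. The part of these libraries in the differences between the t-types was not tested beyond leaving out each recording day.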

How the results depend on the processing

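No paired analysis was possible because the results come from no test and replicate numbers only name the cells. Against 1337 higher and 1098 lower genes, the cells of June or later (3 of each t-type) gave 2378 and 2145, and no filter on low values 4150 and 4151. Intronic counts alone gave 609 lower genes. With each recording day left out, the counts were 1146 to 1435 higher and 936 to 1526 lower. The number of list medians of at least 0.5 in size was 23, 14 with intronic counts alone, 15 with the intron-matched cells and 18 to 27 with each day left out. Between 21 and 27 cells lay nearer to their own t-type in the alternatives. The June cells alone moved the median of genes present in both t-types by -0.21 on the log2 scale.

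Of 43 list medians, 37 changed sign in at least 1 alternative, among them 5 of the 8 that were at least 1 in size. Each alternative took the members with at least 10 CPM in its own counts and cells, so the medians can cover different genes. With intronic counts alone these 5 included GABAergic neurons (-0.84), L6 IT Car3 and claustrum (0.15), upper-layer IT (-0.34) and the sex-linked genes (-1.31, and -0.37 with exonic plus intronic counts). The astrocyte median was -0.024 to 1.71 with each day left out. Of 89 genes, 24 changed sign in at least 1 alternative, 19 of them among the 84 called genes, of which 39 stayed past 2-fold throughout. Of the called genes, in the June cells the sign turned for *Lgr5* (-0.081), *Osr1* (0.63), *Ntsr1* (-2.57), *Tenm2* (-0.11), *Cacna1e* (-0.79), *Grm7* (-1.0), *Chrm2* (0.28), *Npas4* (-5.17) and *mt-Cytb* (0.24). With intronic counts alone it turned for *Ndst3* (-0.68), *Bcr* (-0.16), *Gnb4* (0.63), *Kcnab2* (0.27), *Grm7* (-0.30), *Gabra2* (0.36), *Gabrb2* (0.64), *Necab1* (0.083) and *Prkaca* (0.10), and with exonic plus intronic counts for *Gabrb2* (0.29). With each day left out the values were -2.27 to 4.40 for *Gad1* and -1.22 to 3.56 for *Gad2*, the lowest being those without L6 IT_1 cell 8, and in the cells of March and April the values were -2.40 and -0.96. Of the genes under 2-fold, *Slc17a7* (0.19) and *Grin2b* (-0.15) turned in the June cells, *Camk2a* (0.038) and *Mbp* (-0.10) with intronic counts alone, and *Sulf1* (-0.36) with the intron-matched cells. The median of the L6 IT type names was 1.40 with exonic plus intronic counts. For the list medians the members could change with the alternative, and why the values moved was otherwise not tested. The depth of 10 and 25 cells limits what a read in no cell means. With cells taken as independent draws, 0 of 10 cells allows a share of up to 30.8%.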
